A study of Mus musculus with 12 samples.

Results

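Gene expression was compared between hearts with myocardial infarction (MI) and sham-operated hearts, taking 6 MI arrays against 6 sham arrays, which are all 12 arrays of the series. Each array held RNA from 1 heart of a C57Bl/6 mouse, an inbred laboratory strain, and the labels name the 3 hearts of each of the 4 groups as biological replicates. MI was produced by tying the left anterior descending coronary artery (LAD), the vessel that feeds the front wall of the left ventricle. Wake-MI and Wake-SH mice were operated on from ZT13 to ZT15 and their hearts taken at ZT23, and Sleep-MI and Sleep-SH mice were operated on from ZT1 to ZT3 and their hearts taken at ZT11 (ZT, zeitgeber time in hours after lights on). By these times all hearts were taken at least 8 hours after surgery, counted from the end of each surgery window. The labels give no detail of the sham procedure. The MI samples are described as infarcted tissue, and which region of the sham hearts was sampled is not stated.

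The comparison gave the wake and the sleep difference equal weight. Values are MAS5 signals, a linear brightness per probe set, and differences are given as log2(signal + 16) in MI minus sham, so that a log2 of -1 is a halving and genes with low signals show less than their full change. Of 12393 genes on the array with a probe set of a single gene symbol, 8101 passed a minimum mean level and were tested with limma, a linear model that shares information on the spread across genes. A gene was called at a Benjamini-Hochberg adjusted p below 0.05.

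After coronary ligation, heart muscle without blood supply runs short of oxygen and begins to die within hours. The surviving and injured cells switch on immediate early genes, which need no new protein synthesis to be transcribed, and heat shock genes, whose products refold damaged proteins. Neutrophils enter from the blood on the first day.

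The promoters of the strongest rises and the strongest falls that were called at each time are shown first, because these 4 genes frame the range of the response. The genes are Hspa1b, an inducible heat shock protein gene, Fos, an immediate early transcription factor gene, Rsrp1, which encodes an arginine- and serine-rich protein, and Hpgd, which encodes the enzyme that inactivates prostaglandins. Each line gives the 250 bases before the gene's start in RefSeq (GRCm38.p6), 5′ to 3′ on the gene's strand. The windows lie at chr17:34959239-34959488 (minus strand), chr12:85473640-85473889, chr4:134923375-134923624 and chr8:56294302-56294551 (plus strand for the last 3) in that order. Capitals mark any of 6 motifs searched on both strands, which were TATAAA (the TATA box), TGACTCA (the AP-1 site), TGACGTCA (the cyclic AMP response element), GGAAAT, ACTTCCGG (an Ets site) and GAANNTTC (a pair of heat shock element units).
Hspa1b: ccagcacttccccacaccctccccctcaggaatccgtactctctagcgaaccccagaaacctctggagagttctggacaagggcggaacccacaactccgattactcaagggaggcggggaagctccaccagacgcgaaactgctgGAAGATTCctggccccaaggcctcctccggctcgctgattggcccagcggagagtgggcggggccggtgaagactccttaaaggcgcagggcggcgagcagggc
Fos: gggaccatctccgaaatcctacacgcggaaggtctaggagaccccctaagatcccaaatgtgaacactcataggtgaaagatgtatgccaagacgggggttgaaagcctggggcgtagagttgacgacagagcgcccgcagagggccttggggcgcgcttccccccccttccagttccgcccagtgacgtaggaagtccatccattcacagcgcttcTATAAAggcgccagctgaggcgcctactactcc
Rsrp1: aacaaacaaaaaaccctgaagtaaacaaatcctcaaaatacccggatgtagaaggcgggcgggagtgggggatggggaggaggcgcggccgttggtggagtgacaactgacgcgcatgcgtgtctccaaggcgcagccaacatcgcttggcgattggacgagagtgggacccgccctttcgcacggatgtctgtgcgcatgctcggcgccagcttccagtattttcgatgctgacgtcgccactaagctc
Hpgd: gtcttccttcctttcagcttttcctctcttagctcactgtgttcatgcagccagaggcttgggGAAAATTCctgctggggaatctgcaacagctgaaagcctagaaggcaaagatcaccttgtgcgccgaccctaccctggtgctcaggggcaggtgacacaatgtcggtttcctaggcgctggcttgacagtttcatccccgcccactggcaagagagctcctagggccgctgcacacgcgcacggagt
GAANNTTC was found in the Hspa1b and Hpgd windows, TATAAA in the Fos window, and none of the 6 motifs in the Rsrp1 window, and no matches overlapped. The Rsrp1 window held 22 CpG dinucleotides and the Hpgd window 9, against 15 each in the Hspa1b and Fos windows.

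A single such window was held in the RefSeq table for 5161 of the 8101 genes tested. TATAAA was present in 6.74% of the 5161 windows, in 9.59% of the 438 windows of genes called higher and in 6.30% of the 714 windows of genes called lower. ACTTCCGG was present in 6.51% of all, 4.11% of the higher and 7.14% of the lower genes' windows. TGACTCA was present in 2.77%, 4.11% and 2.52%, TGACGTCA in 2.79%, 4.79% and 2.66%, GGAAAT in 13.8%, 13.2% and 16.4%, and GAANNTTC in 5.19%, 4.57% and 7.56% of these windows in the same order. Among the genes called at each time, TATAAA was present in 8 of 81 windows of rising and 4 of 33 windows of falling genes, and GAANNTTC in 5 and 4. These shares describe letters in a window and were not tested.

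More genes fell than rose after MI, and the falls were shallow. In the limma fit with Benjamini-Hochberg adjustment, 1104 genes were lower (13.6% of those tested) and 688 were higher (8.49%). The median fall was log2 -0.37, a 1.30-fold decrease, with the middle 50% of falls between -0.48 and -0.31. The median rise was log2 0.54, or 1.46-fold. A change of at least 1.5-fold was seen in 130 of the 1104 falling and 298 of the 688 rising genes, and a change of at least 2-fold in 6 and 119. No gene fell 4-fold by this fit, whereas 26 rose at least 4-fold. Near the threshold, the last fall called had log2 -0.37 (adjusted p = 0.0499) and the first not called had log2 -0.18 (adjusted p = 0.0504).

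**Figure D1:**
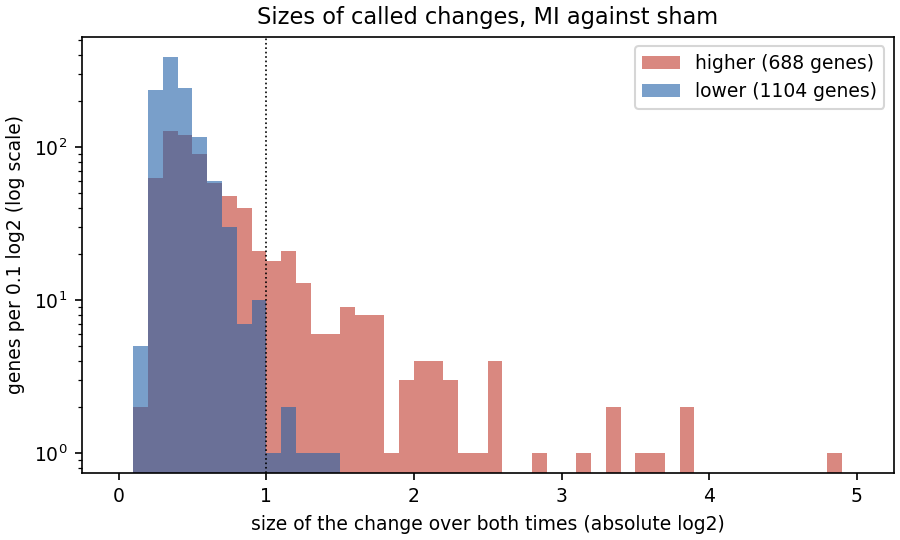
Number of genes (log scale) by the absolute log2 difference between MI and sham over both times, in steps of 0.1, for the 688 genes called higher (red) and the 1104 called lower (blue). The dotted line marks a 2-fold change, beyond which 6 falls and 119 rises lie.

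The falls were spread over genes of all levels. Among the dimmest 2026 tested genes, with mean signals from 16.8 to 53.7, 9.67% were called lower and 6.56% higher. In the next 3 classes of 2025 genes each, in rising order of level, 15.95%, 15.2% and 13.7% were lower and 7.65%, 9.93% and 9.83% were higher. The median signal of a falling gene was 152 in sham and 109 in MI hearts.

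Probe sets that had not been used to choose the falling genes mostly moved the same way. Of the 1104 genes, 339 had 454 other probe sets above the level minimum, and 378 of these (83.3%) were negative, against 58.1% of all such probe sets. Of the 454, 155 (34.1%) were themselves called lower by limma, against 11.3% of all, and 7 were called higher. For the rising genes, 405 of 445 other probe sets (91.0%) were positive, 200 were called higher and 2 were called lower. These probe sets read the same RNA samples on the same arrays, so they bear on the probes and not on the mice.

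The mice of the other time were separate animals with their own sham controls. The p-values of both times came from a fit that shared an estimate of each gene's spread. Only the signs and sizes were therefore read independently, and the p-values were not. Of 865 genes called lower in wake hearts (10.7% of those tested), 785 (90.8%) were also negative in sleep hearts, against 60.3% of all tested genes. An unadjusted p below 0.05 in the same direction in sleep was reached by 305 of them (35.3%), against 10.3% of all genes. The wake falls had a median log2 of -0.55 in wake and -0.21 in sleep hearts. Of 631 genes called higher in wake hearts (7.79%), 548 (86.8%) were positive in sleep hearts, against 39.7% of all genes, and 294 (46.6%) reached an unadjusted p below 0.05 there, against 6.80%. In sleep hearts 215 genes were called (2.65%, against 18.5% in wake hearts), 79 lower (0.975%) and 136 higher (1.68%). Of these, 73 falls (92.4%) and 133 rises (97.8%) had the same sign in wake hearts. Across the 8101 genes, which are not independent replicates, Pearson's r between the wake and the sleep difference was 0.636.

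In the sleep sham group 2 arrays stood apart from the other sham arrays for genes that rose. Sleep-SH replicates 1 and 2 had Il6 signals of 71.0 and 97.8, against 0.395 to 3.75 on the other 4 sham arrays, and Socs3 signals of 295.5 and 440.0, against 42.0 to 86.3. Leaving out both (an alternative chosen after seeing the data, in which the lone sleep sham array is assumed to vary like the other groups) gave 612 genes higher and 689 lower over both times, and 142 higher and 15 lower at each time.

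The MI difference was larger in wake than in sleep hearts for most of the called genes. Of the 1104 falling genes, 1091 were negative at each time, with a median of -0.46 in wake and -0.30 in sleep, and 850 (77.0%) fell further in wake. Of the 688 rising genes, 544 (79.1%) rose further in wake, with medians of 0.68 and 0.42. Of all tested genes, 51.0% had a lower difference in wake than in sleep. With the beta-actin 3′/5′ ratio of each array, described below, as a covariate, 505 rises (73.4%) and 797 falls (72.2%) were larger in wake. Without Sleep-SH replicates 1 and 2, 398 of the 688 rises (57.8%) and 755 of the 1104 falls (68.4%) were larger in wake, and the sleep medians were 0.57 and -0.35. A test of the difference between the 2 effects for single genes with limma called 0 of 8101 genes (0.0%), with 852 genes at an unadjusted p below 0.05, and 0 to 2 genes under the other normalizations, filters and variance settings tried (3 with the replicate block). Leaving out 1 array gave up to 35 genes for that difference (35 without Sleep-SH replicate 3, 23 without Wake-SH replicate 2). The gene nearest to a call was Timp3, an inhibitor of matrix metalloproteinases, whose rise was log2 1.32 in wake and 0.26 in sleep hearts (difference 1.06, SE 0.15, adjusted p = 0.0503).

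Genes called at each time in the same direction numbered 163 (2.01% of those tested), with 118 higher (1.46%) and 45 lower (0.555%). No gene was called in opposite directions. Since these 163 were chosen by their values in both comparisons, their sizes are a description. The 45 falling genes had a median log2 of -0.69 in wake and -0.61 in sleep hearts, and 25 of them fell further in wake. Their falls over both times ranged from log2 -0.38 to -1.36, with 30 of at least 1.5-fold and 4 of at least 2-fold. At each time separately, MI and sham arrays did not overlap for 44 of the 45 (7.06% of all tested genes were lower without overlap at both times), and all 6 MI arrays lay below all 6 sham arrays for 42 (4.85% of all tested genes). The 118 rising genes had medians of 1.35 in wake and 1.09 in sleep hearts, with no overlap at either time for 116 (4.23% of all) and all 6 MI arrays above all 6 sham arrays for 106 (2.97% of all).

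Both counts depended on single arrays. The count of 118 was 47 without Sleep-MI replicate 1, 64 without Sleep-SH replicate 3, and 68 to 78 without Sleep-MI replicate 2, Sleep-MI replicate 3 or Sleep-SH replicate 1. The count of 45 was 6 without Sleep-MI replicate 1, Sleep-SH replicate 1 or Sleep-SH replicate 3, 16 to 27 without Sleep-MI replicate 2, Sleep-MI replicate 3 or any of the 3 Wake-SH arrays, and up to 49 without other arrays. A wider set, called over both times and without overlap at either time, held 844 genes (10.4%), with 513 falling (6.33%) and 331 rising (4.09%).

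**Figure D2:**
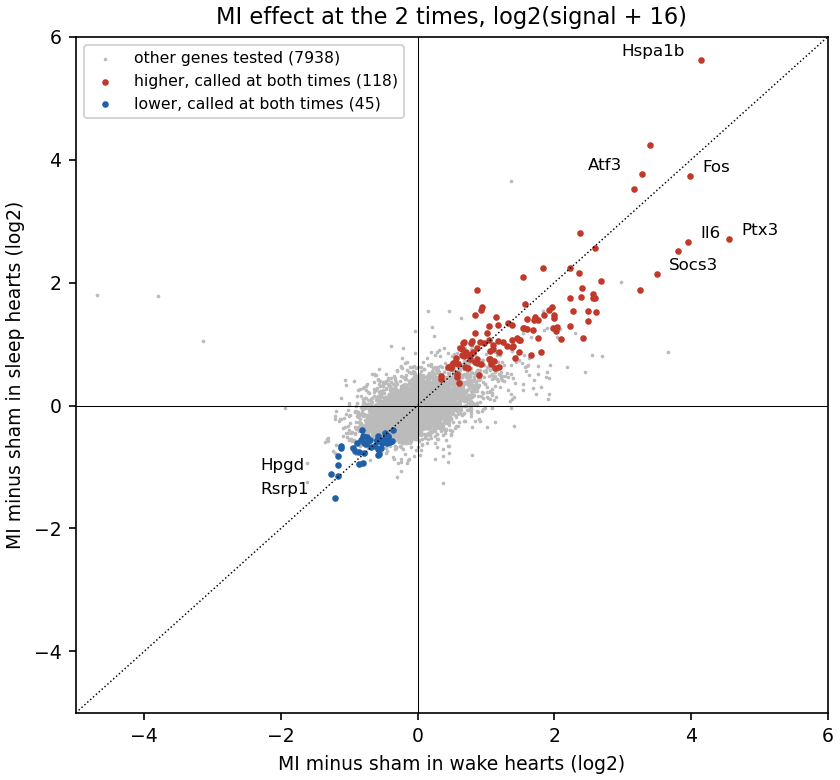
MI minus sham difference in wake hearts (x axis) and in sleep hearts (y axis) on the log2(signal + 16) scale for 8101 genes, with the 118 genes called higher at each time in red and the 45 called lower in blue. The dotted line marks equal differences; the red points reach above log2 4 at both times, whereas no blue point lies beyond log2 -1.6.

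Control probe sets for beta-actin read its messenger RNA near the 3′ end and near the 5′ end, and the 3′/5′ ratio rises as RNA breaks down. It was 2.60 ± 0.62 in wake MI, 1.79 ± 0.02 in wake sham, 2.40 ± 0.45 in sleep MI and 2.18 ± 0.28 on sleep sham arrays (SD, 3 arrays each), a log2 difference of 0.32 (exact permutation within time, two-sided p = 0.03 over 400 arrangements, of which the smallest possible is 0.005). The same ratio for Gapdh differed by log2 0.14 (exact permutation p = 0.1), the added hybridisation controls by log2 0.21 (p = 0.045) and the median signal by log2 -0.03 (p = 0.025). Fewer probe sets reached a signal of 100 on MI arrays (98.3 fewer on average of 6824 to 7006, exact permutation p = 0.01). With the ratio as a covariate, limma called 366 genes lower and 306 higher. All 1104 falling genes stayed negative in that fit, with a median of -0.35, and 323 of them kept their call. The 2 arrays of highest ratio were Wake-MI replicate 3 (3.31) and Sleep-MI replicate 3 (2.92), and without them 914 genes were lower and 594 higher. The Actb gene itself was higher after MI (log2 0.48, SE 0.09). Beyond these fits, the part of RNA quality in the falls was not tested.

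Among the genes that fell at each time, the deepest was Rsrp1. Its signal was 439, 416 and 316 on the wake MI arrays against 813, 1058 and 882 on the wake sham arrays, and 263, 200 and 690 on the sleep MI arrays against 1054, 903 and 983 on the sleep sham arrays. Every MI array lay below every sham array, with Sleep-MI replicate 3 nearest to the sham range. The difference was log2 -1.36 (SE 0.22, limma adjusted p = 0.000859), and both other probe sets of Rsrp1 were also called lower.

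Hpgd was lower on every MI array at each time. Its signal was 49.0, 42.7 and 44.4 in wake MI against 103, 133 and 166 in wake sham hearts, and 70.0, 53.1 and 56.6 in sleep MI against 124, 153 and 171 in sleep sham hearts. The fall was log2 -1.27 in wake and -1.12 in sleep hearts, and log2 -1.19 over both (SE 0.11, limma adjusted p = 1.59e-05). Nr0b2, an orphan nuclear receptor that represses other nuclear receptors, ranged from 88.2 to 139 in sham (median 133) and from 37.6 to 83.5 in MI hearts (median 58.3). Its fall was log2 -0.87 (SE 0.15).

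Some of the 45 were genes of RNA handling or transcription. Of 103 tested splicing factors and nuclear RNA-binding proteins 1 was lower at each time, against 0.555% of all tested genes. Of 34 RNA helicases, 22 nucleoporins and 47 genes of mRNA decay, polyadenylation and the nuclear exosome, 0 were. Among 29 Mediator subunits 1 was. Ncbp2, the small subunit of the nuclear complex that binds the messenger RNA cap, ranged from 170 to 265 in sham (median 213) and from 93.9 to 133 in MI hearts (median 102), a fall of log2 -0.89 (SE 0.09, limma adjusted p = 2.23e-05). Snrnp27, a protein of the spliceosome's small nuclear ribonucleoproteins and the brightest of the 45, ranged from 1084 to 1424 in sham (median 1320) and from 753 to 940 in MI hearts (median 826). That was a fall of log2 -0.61 (SE 0.07), deeper in wake (-0.81) than in sleep (-0.40). Trmt1l, a relative of the transfer RNA methyltransferases, fell by 1.06 on the log2 scale (SE 0.12), from a sham median of 123.2 to an MI median of 44.2. Med20, a subunit of the Mediator complex that links transcription factors to RNA polymerase II, fell by 0.70 (SE 0.10), from a median of 115 to 66.4.

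Adamts5, a protease that cuts cartilage proteoglycans and also among the 45, ranged from 150 to 244 in sham (median 173) and from 91.0 to 122.6 in MI hearts (median 103). Its fall was log2 -0.69 in wake and -0.68 in sleep hearts. Dusp7, a phosphatase of the ERK kinases, fell by 0.70 (SE 0.12), although its highest MI array (99.1) reached the lowest sham array (98.9). Plekhf1, an endosomal protein with a FYVE domain, ranged from 155 to 319 in sham and from 96.9 to 146 in MI hearts (log2 -0.91, SE 0.16). The sugar nucleotide transporter family gene Slc35a5 fell by 0.83 (SE 0.12) and Kcnj8, the pore subunit of a potassium channel closed by ATP, fell by 0.47 (SE 0.08).

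Ang and Rnase4 encode secreted ribonucleases from overlapping loci that share a start on chromosome 14 in RefSeq, so their falls may not be separate. Rnase4 ranged from 1078 to 1385 in sham and from 689 to 993 in MI hearts (log2 -0.63, SE 0.09), and Ang from 38.9 to 64.3 and from 19.6 to 31.3 (log2 -0.68, SE 0.11). Chac2 and Ggct, enzymes that break down glutathione and its gamma-glutamyl products, fell by 0.70 (SE 0.08) and 0.48 (SE 0.08). Cyb5a, the electron carrier cytochrome b5, ranged from 955 to 1236 in sham and from 756 to 917 in MI hearts (log2 -0.46, SE 0.07). Ggct and Kcnj8 were chosen after their values were seen.

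The other genes of the 20 with the largest falls among those without overlap at either time and with a mean sham signal of at least 50 were Ccdc71l (log2 -0.99), Znrd1as (-0.91), AW112010 (-0.82), Tmem41a (-0.80), Tcta (-0.78), Spice1 (-0.75), D6Wsu163e (-0.69) and Cdk2ap2 (-0.65). For each of these 8 genes all 6 MI arrays were below all 6 sham arrays. Znrd1as is named as an antisense transcript, and whether its probe set also reads a neighbouring gene was not tested. Of the 45 falling genes, 17 had 24 other probe sets above the level minimum, and all 24 were negative, with 18 called lower.

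**Figure D3:**
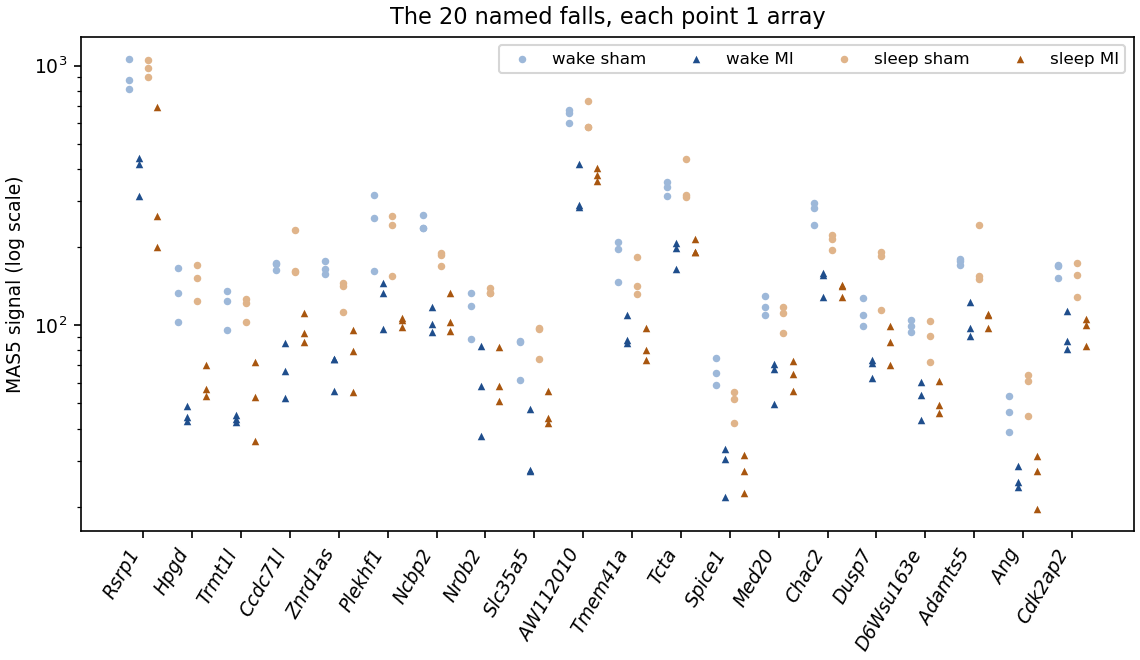
MAS5 signal (log scale) of the 20 genes with the largest falls among those called lower at each time, without overlap of MI and sham arrays at either time and with a mean sham signal of at least 50, 1 point per array, circles for sham and triangles for MI, blue for wake and brown for sleep. The MI arrays lie below the sham arrays of the same time for each gene because the genes were chosen so.

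Only 6 of the 1104 falling genes fell at least 2-fold, and 4 of them, Rsrp1, Hpgd, Npr3 and Trmt1l, were called at each time. Npr3, the clearance receptor of the natriuretic peptides, ranged from 135 to 288 in sham and from 54.7 to 144 in MI hearts, so the groups overlapped (log2 -1.16, SE 0.20). The other 2 were called over both times and in wake but not in sleep. Inmt, a methyltransferase, fell by 1.62 in wake and had log2 -1.24 in sleep (limma adjusted p = 0.113). Cdh11, a cadherin of mesenchymal cells, fell by 1.62 in wake and had log2 -0.94 in sleep (limma adjusted p = 0.0652). Npr3 and Inmt were chosen after their values were seen.

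Of 40 gene lists by function or name, which held 2098 of the tested genes (25.9%), the mitochondrial ribosome and Mediator had the highest shares of falling genes. Mitochondrial ribosomal proteins build the ribosome that translates the few proteins encoded in mitochondrial DNA, which are subunits of oxidative phosphorylation. Of 74 tested, 28 were lower (37.8%, against 13.6% of all tested genes) and 0 were higher. The median log2 was -0.19 (wake -0.27, sleep -0.13), against -0.06 for all tested genes, and 59 of the 74 (79.7%) were negative at each time. In a split chosen after seeing the data, the large subunit had 19 of 47 lower (7 to 23 with 1 array left out) and the small subunit 9 of 27 (3 to 11). With quantile normalization the count was 24 and with median centring 20.

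Of the 74, only Mrpl49 was called at each time. Its signal was 119, 116 and 117 in wake MI against 213, 171 and 230 in wake sham hearts, and 112, 138 and 109 in sleep MI against 181, 157 and 221 in sleep sham hearts. The MI and sham arrays did not overlap (log2 -0.64, SE 0.10, limma adjusted p = 0.000663). Mrpl34 fell by 0.59 (SE 0.10), with log2 -0.90 in wake and -0.27 in sleep hearts, and Mrpl32 and Mrpl40 fell by 0.39 (SE 0.09) and 0.38 (SE 0.07). Of the mitochondrial ribosomal genes, 2 were called lower in the fit with the beta-actin covariate (median -0.12), a smaller share of the 74 than the 366 of all 8101 genes, and 12 without the 2 arrays of highest ratio. Leaving out any 1 array gave 11 to 34, with 11 without Wake-SH replicate 1, 12 without Wake-SH replicate 3 or Sleep-SH replicate 3, 15 without Sleep-MI replicate 1 and 16 without the third replicate of either MI group.

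The nuclear-encoded partners of the proteins made by this ribosome were seldom called. Of 78 oxidative phosphorylation subunits tested, 1 was lower and 0 higher (1.28% and 0%), with a median log2 of 0.02, which became -0.02 with quantile normalization. The 1 was Cox8a, a subunit of cytochrome c oxidase, which ranged from 967 to 1155 in sham and from 798 to 963 in MI hearts (log2 -0.22, SE 0.07, limma adjusted p = 0.0276). Cytosolic ribosomal proteins had 1 of 44 lower, Rps9 (log2 -0.26, SE 0.06), and a median of -0.04. Of its 2 other probe sets, 1 had the opposite sign. Genes of fatty acid oxidation and the citrate cycle had 1 of 41 lower, Mlycd (log2 -0.28), and 1 higher, Cd36 (0.25). By these counts the mitochondrial ribosome had more falling genes than the respiratory chain, but the difference between the lists was not tested.

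Among genes that assemble the cytosolic ribosome in the nucleolus, more were called higher than lower. Of 71 ribosome biogenesis genes, 13 were higher (18.3%, against 8.49%) and 4 lower, with a median of 0.11 (wake 0.16, sleep 0.10). Gnl3, a nucleolar GTPase, ranged from 140 to 231 in sham and from 235 to 325 in MI hearts (log2 0.67, SE 0.11, limma adjusted p = 0.0008). Nolc1 rose by log2 0.64 (SE 0.11), with 1 of its 2 other probe sets of the opposite sign, and Nop58, a core protein of the RNA methylation complex, by 0.49 (SE 0.10). With the beta-actin covariate 4 of the 71 were higher and 0 lower, against 306 and 366 of all 8101 genes.

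**Figure D4:**
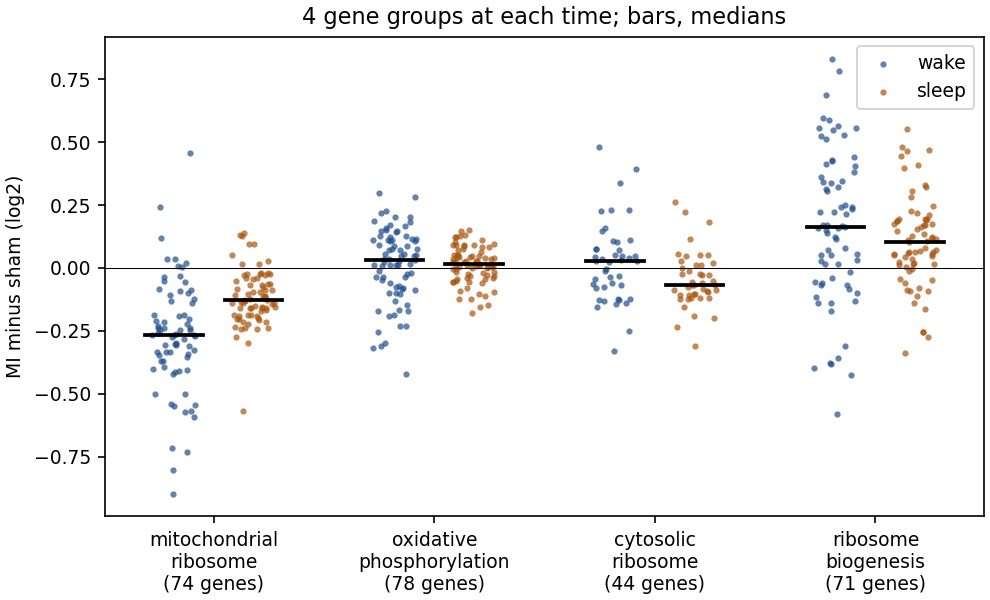
MI minus sham difference on the log2(signal + 16) scale for each tested gene of 4 groups, in wake hearts (blue) and sleep hearts (brown), with black bars at the medians. The mitochondrial ribosome had medians of -0.27 and -0.13, the ribosome biogenesis group 0.16 and 0.10, and both other groups lay within 0.07 of 0.

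Lists of transcription machinery differed in their shares of falling genes, which was 13.6% over all tested genes. Chromatin-modifying enzyme genes had 5 of 68 lower (7.35%). Of 29 Mediator subunits, 11 were lower (37.9%) and 1, Med15, was higher, with a median of -0.12. Med21 ranged from 241 to 304 in sham and from 142 to 240 in MI hearts (log2 -0.40, SE 0.10), and Med30 and Med4 fell by 0.38 (SE 0.09) and 0.29 (SE 0.08). With the beta-actin covariate 1 of the 29 Mediator subunits was lower, also a smaller share than over all genes, and the count was 6 without Sleep-MI replicate 1 or Wake-SH replicate 3 and 7 without Wake-SH replicate 1. Of 23 RNA polymerase subunits, 5 were lower (21.7%) and 0 higher, and 1 was lower with the beta-actin covariate. Among the 5 were Polr1c (log2 -0.36), Polr2g (-0.29) and the shared subunits Polr2e (-0.33) and Polr2f (-0.23). The other probe set of Polr2e and of Polr2f had the opposite sign, and leaving out any 1 array gave 1 to 7 of the 23 (1 without Sleep-MI replicate 1, 2 without Wake-SH replicate 1, and 3 without Sleep-SH replicate 1, Sleep-SH replicate 3 or Wake-MI replicate 3). Med15 was named after its value was seen.

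Among zinc finger genes, a large family of DNA-binding proteins, 25 of 132 were lower (18.9%) and 9 higher (6.82%). Over all tested genes 13.6% were lower and 8.49% higher. Zfp958, called at each time, ranged from 37.1 to 58.8 in sham and from 19.5 to 36.5 in MI hearts (log2 -0.64, SE 0.11), and Zfp329 fell by 0.59 (SE 0.10). Splicing factors and nuclear RNA-binding proteins had more genes higher, 14 of 103 (13.6%), than lower, 8 of 103, but 4 higher and 6 lower with the beta-actin covariate. Sf3b1, the branch point protein of the spliceosome, ranged from 439 to 802 in sham and from 892 to 1143 in MI hearts (log2 0.81, SE 0.10, limma adjusted p = 0.000167). Srsf5 rose by log2 0.82 (SE 0.14). Hnrnpdl rose by log2 0.51 (SE 0.08), while 1 of its 5 other probe sets was called lower.

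Lists of protein turnover and traffic differed in their shares of falling genes, which was 13.6% over all tested genes. Of 57 ubiquitin-conjugating and ubiquitin-specific protease genes 5 were lower (8.77%) and 5 higher. Of 31 autophagy genes, 6 were lower (19.4%) and 0 higher, including Atg14, which directs the autophagy lipid kinase and was called at each time (log2 -0.61, SE 0.11), and Atg5 (-0.36) and Atg3 (-0.31) of the conjugation system. Of 45 proteasome genes 8 were lower, led by the assembly chaperone Psmg2 (log2 -0.42, SE 0.07) and the immunoproteasome subunit Psmb9 (-0.40, SE 0.08), and 2 were higher. Of 105 F-box, RING-finger and TRIM ubiquitin ligase genes 20 were lower (19.05%) and 8 higher, with Trim21 at log2 -0.53 (SE 0.11) and Trim32 at -0.53 (SE 0.11). Of 103 vesicle traffic genes 16 were lower (15.5%) and 3 higher, with Vps26c, a retriever subunit, at log2 -0.64 (SE 0.09) and Rab21 at -0.44 (SE 0.08).

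In smaller lists, of 28 centrosome and cilium genes 5 were lower (17.9%), with Cep350 at log2 -0.55 (SE 0.10). Of 17 glutathione S-transferases 4 were lower (23.5%), with Gsta3 at -0.52 (SE 0.09), whose other probe set had the opposite sign. Neither list had a gene called higher. Over all tested genes 13.6% were lower and 8.49% higher. Genes known mainly by a clone or by a structural name had 17 of 74 RIKEN clone-named genes (22.97%) and 37 of 181 Tmem, Fam and Ccdc genes (20.4%) called lower, against 4 and 6 higher. 0610009B22Rik ranged from 402 to 603 in sham and from 192 to 380 in MI hearts (log2 -0.73, SE 0.13). Of all 1104 falling genes, 272 (24.6%) belonged to any of the 40 lists, against 25.9% of tested genes.

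With the beta-actin covariate, the counts of lower genes in these lists were 9 of 132 zinc finger, 2 of 31 autophagy, 2 of 45 proteasome, 6 of 105 ubiquitin ligase, 6 of 103 vesicle traffic, 2 of 28 centrosome and cilium, 1 of 17 glutathione S-transferase, 5 of 74 Rik and 10 of 181 Tmem, Fam and Ccdc genes, against 366 of all 8101. Leaving out any 1 array gave 18 to 27, 3 to 6, 3 to 7, 8 to 19, 11 to 18, 2 to 6, 1 to 7, 13 to 18 and 24 to 39 in the same order. The lowest of these came without Sleep-MI replicate 1 for ubiquitin ligases, without Sleep-SH replicate 1 for autophagy genes, without Sleep-MI replicate 3 for proteasome genes, without Wake-SH replicate 3 for centrosome and cilium genes, and without Sleep-SH replicate 3 for glutathione S-transferases and Tmem, Fam and Ccdc genes.

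**Figure D5:**
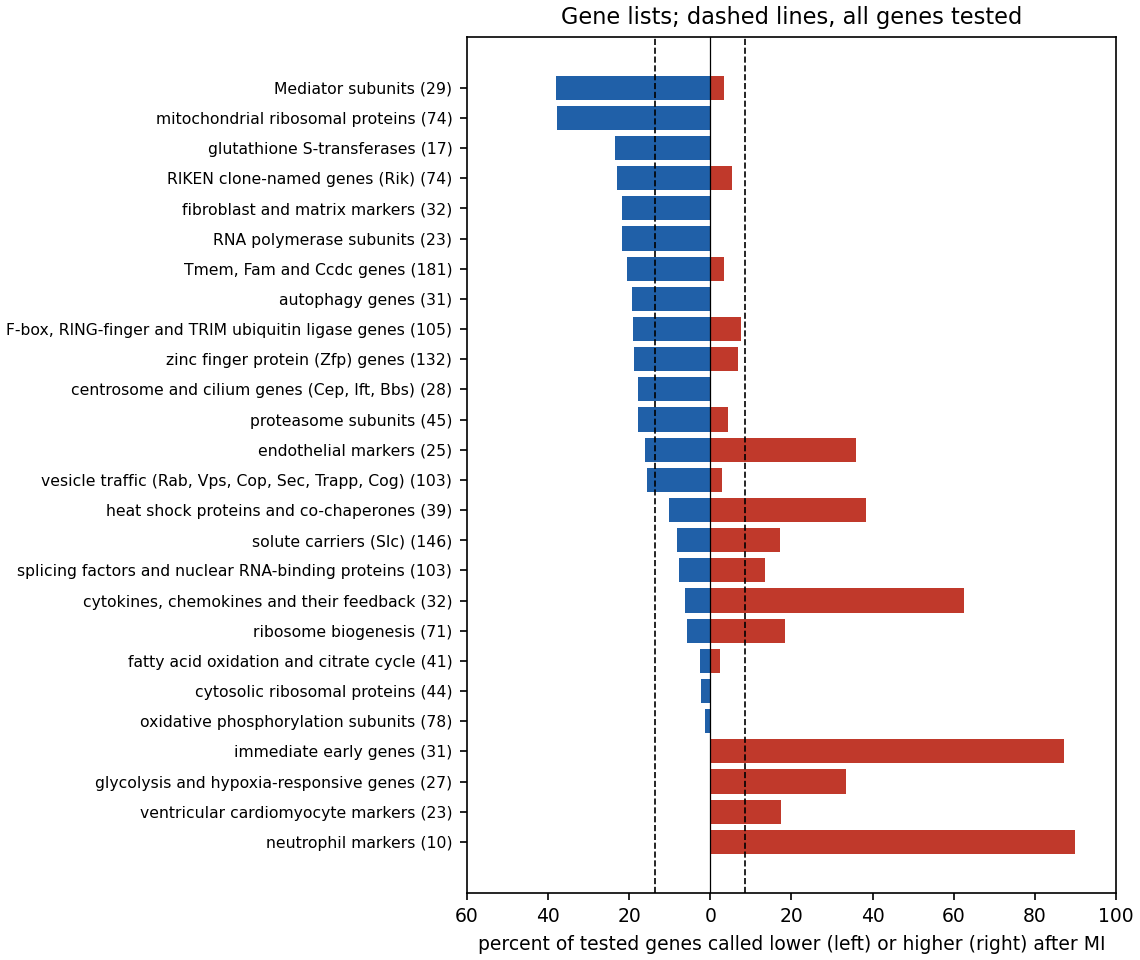
Percent of the tested genes of 26 lists that were called lower (blue, to the left) or higher (red, to the right) over both times, with the number of tested genes in brackets. Dashed lines mark the shares among all 8101 genes, 13.6% lower and 8.49% higher. Mediator and mitochondrial ribosomal genes reach about 38% lower and immediate early and neutrophil genes over 85% higher. The level minimum was taken over all arrays, so genes low in sham hearts could be tested through their MI signal.

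The 118 genes that rose at each time were 1.46% of those tested. The level minimum was taken over all 12 arrays, so genes low in sham hearts could pass it through their MI signal. Of the 118, 6 had a mean sham signal below 16. The 118 included 15 of 31 tested immediate early genes, 6 of 39 heat shock or co-chaperone genes and 6 of 32 cytokine or feedback genes. The 12 largest rises were those of Hspa1b (log2 4.14 in wake, 5.62 in sleep), Fos (3.99, 3.73), Hspa1a (3.40, 4.24), Ptx3 (4.55, 2.71), Atf3 (3.28, 3.77), Ccn1 (3.16, 3.52), Il6 (3.96, 2.65), Egr1 (3.81, 2.52), Socs3 (3.50, 2.14), Hbegf (2.38, 2.81), Akap12 (2.59, 2.56) and Sphk1 (3.26, 1.88), and the difference between times was not called for any of them. Immediate early genes had 27 of 31 higher (87.1%, against 8.49% of all tested genes) and 0 lower over both times. Btg2, an antiproliferative gene of this class, ranged from 104 to 232 in sham (median 121) and from 659 to 720 in MI hearts (median 695), a rise of log2 2.57 in wake and 1.74 in sleep hearts (over both, SE 0.11, limma adjusted p = 6.9e-08). Akap12, a scaffold for protein kinases, rose evenly, by log2 2.59 in wake and 2.56 in sleep hearts, from a sham median of 226 to an MI median of 1452. Hbegf, a growth factor of the EGF family, ranged from 86.1 to 161 in sham and from 459 to 1059 in MI hearts (log2 2.60, SE 0.18).

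Of 39 heat shock and co-chaperone genes 15 were higher (38.5%) and 4 lower (10.3%), against 8.49% and 13.6% of all tested genes. Hspb1, a small heat shock protein of muscle, had signals of 5825, 5741 and 5586 in wake MI against 3512, 2891 and 3373 in wake sham hearts, and 5991, 5443 and 6537 in sleep MI against 3353, 2939 and 3501 in sleep sham hearts. The groups were far apart and the rise was log2 0.81 in wake and 0.87 in sleep hearts (limma adjusted p over both = 6.27e-06). The 4 that fell, named after their values were seen, were Hspa4l, Dnajb2, Chordc1 and Fkbp4, and 1 to 4 genes of the list were lower when 1 array was left out (1 without Sleep-MI replicate 2, Sleep-SH replicate 1, Wake-SH replicate 1 or Wake-SH replicate 3). Hspa1a and Hspa1b are near-identical copies whose probe sets may read each other.

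Cytokines, chemokines and their feedback genes had 20 of 32 higher (62.5%, against 8.49% of all tested genes) and 2 lower. Glycolysis and hypoxia-responsive genes had 9 of 27 higher (33.3%) and 0 lower. Hif1a, the hypoxia-inducible transcription factor subunit, ranged from 417 to 712 in sham and from 841 to 1192 in MI hearts (log2 1.03, SE 0.12, limma adjusted p = 7.3e-05). Adm, a vasodilator peptide gene, rose by log2 0.91 (SE 0.12) and Pfkp, a phosphofructokinase, by 0.79 (SE 0.12). Solute carriers had 25 of 146 higher (17.1%) and 12 lower, and Slc38a2, an amino acid transporter, rose by log2 0.97 in wake and 1.02 in sleep hearts. Ppargc1a, a coactivator that drives mitochondrial gene programmes, ranged from 464 to 622 in sham and from 956 to 1542 in MI hearts (log2 1.12, SE 0.12), and all 4 of its other probe sets were called higher.

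Heart muscle genes were bright on every array. Of 23 ventricular cardiomyocyte markers 4 were higher (17.4%) and 0 lower, against 8.49% and 13.6% of all tested genes. They were Nrap (log2 0.52, SE 0.06), Actn2 (0.22, SE 0.07), Ttn (0.22, SE 0.07) and Tcap (0.20, SE 0.06). Only 1 was higher without Sleep-MI replicate 3, Wake-MI replicate 2, Wake-SH replicate 2 or Wake-SH replicate 3. The count was also 1 with the beta-actin covariate and 1 without the 2 arrays of highest ratio. Actn2, Ttn and Tcap also lost their calls without a level filter and with variance without a trend. The summed signal of the 23 was 144360 to 173610 in MI and 125840 to 171210 in sham hearts. Myh6 and Ryr2 had log2 0.15 and 0.12 (limma adjusted p = 0.201 and 0.245). Nppb, the B-type natriuretic peptide gene, rose by log2 2.52 over both times (SE 0.46), with log2 1.37 in wake (limma adjusted p = 0.156, not called) and 3.66 in sleep hearts. Nppa had log2 -0.75 (SE 0.32, limma adjusted p = 0.102).

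Lists of markers of other cell types differed in how many genes were called. Of 14 smooth muscle and pericyte markers 2 were higher and 1 lower, and 0 of 7 platelet and erythroid markers were called. In bulk tissue, fewer cells of a type and less RNA per cell cannot be told apart. Of 10 tested neutrophil markers 9 were higher (90%) and 0 lower, against 8.49% and 13.6% of all tested genes. The level minimum was taken over all 12 arrays, so a marker low in sham hearts could pass it through its MI signal. Hdc, for example, had mean signals of 11.2 in sham and 53.3 in MI hearts, so this share is a description. The summed signal of the 17 on the array was 1475 to 3484 in MI and 322 to 2222 in sham hearts. Ltf, Cd177 and Trem1 were below a signal of 16 on every array. S100a8 ranged from 48.1 to 331 in sham and from 412 to 653 in MI hearts (log2 1.58, SE 0.27). Of 25 endothelial markers 9 were higher (36%) and 4 lower (16%), against 8.49% and 13.6% of all tested genes. Cdh5, the endothelial cadherin, had log2 0.49 (SE 0.09), Sox17 1.19 (SE 0.20) and Egfl7 -0.50 (SE 0.09). The summed signal of the 26 on the array was 6831 to 9341 in MI and 7371 to 8485 in sham hearts. With the beta-actin covariate 2 endothelial markers were higher and 3 lower and Cdh5 lost its call, without the 2 arrays of highest ratio 7 were higher and 7 lower, and without Wake-MI replicate 3 alone 7 were lower.

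Of 32 fibroblast and matrix markers 7 were lower (21.9%) and 0 higher, against 13.6% and 8.49% of all tested genes. The 7 were Cdh11, Fbln1, Fmod, Dpep1, Dcn, Tcf21 and Col1a1. Without Sleep-MI replicate 3, Sleep-SH replicate 3, Wake-MI replicate 2 or Wake-SH replicate 3, 4 of the 32 were lower. The median of the 32 was log2 -0.29 in wake and 0.10 in sleep hearts. The summed signal of the 33 on the array was 13663 to 21809 in MI and 15861 to 25367 in sham hearts. Fbln1, a matrix glycoprotein, ranged from 356 to 510 in sham and from 211 to 313 in MI hearts, with log2 -0.91 in wake and -0.34 in sleep hearts. Col1a1 had log2 -0.997 in wake and 0.05 in sleep hearts. It lost its call over both times with quantile normalization, with probe sets averaged per gene and without a level filter. With the beta-actin covariate 2 of the 32 markers were lower, and Col1a1, Fmod and Dpep1 lost their calls. Of 18 resident macrophage markers 1 was lower and 1 higher (5.56% each). Lymphocyte markers had none above the level minimum, and 14 of 17 were below a signal of 16 on every array. Atrial markers summed to 1928 to 4984 on 5 of the 6 sham arrays, to 15343 on the sixth, a wake sham array, and to 1209 to 3168 on MI arrays, and 0 of 5 tested were called. The part of cell composition in the falls of other genes was not tested.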

How the data were processed

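RNA from 12 mouse hearts was hybridised with a biotin label to 12 Affymetrix arrays, 1 per heart, per the labels' protocols. The authors deposited a linear intensity for each probe set, summarised by MAS5 per the submitters' processing notes. MAS5 settings and detection calls are not stated, and no batch or scan date was given. The number of arrays, 3 a group, limits the precision.

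Of 22690 probe sets, 64 controls were left out, 20380 had 1 symbol, 691 several and 1555 none. Each of 12393 genes took its brightest probe set, and 8101 genes at or above the 40th percentile of probe set levels (signal 16.8) were tested. Of the gene identifiers, 12369 matched the RefSeq gene table (GRCm38.p6) and 24 did not. Values were log2(signal + 16).

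Groups were fitted with limma 3.58.1 (R 4.3.3) with 1 mean per group over all arrays and an intensity trend (8 residual degrees of freedom, 14.0 with the prior), two-sided, adjusted over 8101 genes within each contrast. The fit was tested on simulated data. Tables and figures used Python 3.11.15, numpy 2.4.6, pandas 2.3.3 and matplotlib 3.10.9.

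Members and lists were chosen with earlier results of these data known. Named genes were, among genes called at each time and without overlap at either time, the 20 largest falls and 12 largest rises with a mean of at least 50 in the higher group, the 8 brightest falls, up to 4 called genes per discussed list, a panel of 16 genes (15 tested), and defining cell type markers; the tail could be left out. Alternatives were pseudocounts of 1 and 64, other level filters, quantile normalization, median centring, mean of probe sets, probe sets taken singly, variance settings, the replicate block, each array left out, stricter thresholds and the beta-actin ratio as a covariate; leaving out the 2 arrays of highest ratio, or Sleep-SH replicates 1 and 2, was chosen after seeing the data.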

Additional observations from a re-analysis of the deposited data

Results flagged for a closer look

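Of 274 sets of 6 arrays examined for the named genes, 16 had an array that stood apart from the other 5 by Dixon's criterion; chance gives about 1 in 20. These were sets of MI or of sham arrays that mix both times.

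Wake-MI replicate 3 was the lowest MI array for Cox8a (798, the others 923 to 963), Mrpl32 (386, the others 517 to 582), Mrpl40 (189, the others 222 to 242) and Polr2f (431, the others 487 to 510), and the highest for Ptprb (368, the others 268 to 286). This was also the array with the highest beta-actin ratio, 3.31. Wake-MI replicate 1 was the lowest MI array for Hspa1b (451, the others 1981 to 3595). Sleep-MI replicate 2 was the highest MI array for Hdc (83.0, the others 39.9 to 51.1) and Mrpl49 (138, the others 109 to 119).

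Among sham arrays, Wake-SH replicate 1 was lowest for Atg14 (47.2, the others 72.5 to 87.3) and Cyb5a (955, the others 1140 to 1236), and Wake-SH replicate 2 for Nr0b2 (88.2, the others 119 to 139). Sleep-SH replicate 1 was highest for Ccdc71l (232, the others 160 to 174) and lowest for Mrpl32 (574, the others 689 to 733). Sleep-SH replicate 2 was highest for Hif1a (712, the others 417 to 501). Sleep-SH replicate 3 was highest for Adamts5 (244, the others 150 to 180) and lowest for Hspa1a (17.1, the others 29.6 to 36.6).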

How the results depend on the processing

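With the beta-actin covariate, 672 genes differed over both times (306 higher, 366 lower), 274 in wake hearts, and 83 at each time (68 higher, 15 lower). Without a level filter 140 genes differed in sleep hearts and 98 at each time, 14 of them lower. The number lower at each time was 28 with quantile normalization and 22 without the 2 arrays of highest ratio. With Sleep-SH arrays 1 and 2 left out, 689 genes were lower over both times, 15 lower at each time, and 1 differed between times. Over both times 779 genes passed an adjusted p below 0.01. At an adjusted p below 0.05, 125 genes changed at least 2-fold. The difference between wake and sleep effects was called for 1 gene with median centring, 1 with the filter at the 60th percentile, 1 with robust variance and 2 with quantile normalization. Deviations from the group means correlated by -0.18 to 0.25 between same-numbered arrays of different groups, against -0.20 to 0.28 for other numbers. With 3 arrays a group, these values cannot decide whether the numbers pair the mice. With the replicate block 26 genes were lower at each time and 3 genes differed between times.

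Leaving out 1 array gave 1314 to 1801 genes over both times (557 to 693 higher, 757 to 1108 lower), 845 to 1511 in wake, 62 to 289 in sleep, 53 to 185 at each time (47 to 140 higher, 6 to 49 lower) and 0 to 35 for the difference. The wake count was lowest without Wake-SH replicate 3 (845) or 1 (863), the sleep count without Sleep-MI replicate 1 (62). With probe sets averaged per gene Myh6 became -0.13 and Ryr2 -0.015, neither called. Of 129 named genes called, 89 kept their call under every alternative and 36 lost it with the beta-actin covariate. The cause of these changes was not tested.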

Other observations

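Several other lists are given beside the shares of all tested genes, 13.6% lower and 8.49% higher. Of 49 translation factors 6 were lower (12.2%) and 5 higher (10.2%), which is near those shares. Of 68 chromatin-modifying enzyme genes 5 were lower (7.35%) and 4 higher (5.88%). Of 36 TGF-beta and BMP signalling genes 6 were higher (16.7%) and 3 lower (8.33%). Aminoacyl-tRNA synthetases, which load amino acids onto transfer RNA, had 1 of 26 lower (3.85%) and 0 higher by limma.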
